A study of Mus musculus with 12 samples.

Results

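Foxa1, Foxa2, Foxa3, Cebpa, Cebpb, Prox1, Onecut2, Gata4 and Atf5 are transcription factors associated with hepatocyte identity. These 9 genes were taken by name from a liver RNA-seq count table of 55401 genes, and all 9 were among the 13205 genes with enough counts to test. The livers came from 12 female mice aged 15 weeks, 6 carrying the Mir483 transgene (iTgMir483, labelled over-expressor) and 6 littermate controls (Control). The iTgMir483 mice hold a Tet-off transgene with the tTA activator at Rosa26, which adds a copy of Mir483, on a C57BL/6J background from a cross that the labels name CMVxmiR. CMV-Cre, which is active in all tissues, was used to remove the Neo cassette. Doxycycline in the drinking water was given throughout pregnancy to inhibit the transgene, and it was then withdrawn to allow expression from birth. The transgene is not restricted to hepatocytes, and RNA of the whole liver was measured, so fewer cells of a type and less RNA per cell cannot be told apart.

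Hepatocyte identity is held by a network of transcription factors that bind one another's regulatory regions and those of genes for secreted proteins and metabolic enzymes. The Foxa proteins open closed chromatin at liver enhancers, and the C/EBP proteins drive metabolic and acute-phase genes. Prox1, Onecut2 and Gata4 act in liver development and persist in the adult organ, while Atf5 is a leucine zipper factor abundant in liver. Whether liver cells with added Mir483 held the transcripts of this network at the control level is the comparison described here.

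The transgene gives both arms of the Mir483 precursor, whose seeds (bases 2 to 8, in capitals) are shown because a microRNA pairs with its targets through the seed. The sequences are those of RefSeq, from chr7:142654932-142654952 for miR-483-3p and chr7:142654968-142654989 for miR-483-5p (GRCm38, minus strand).
miR-483-3p: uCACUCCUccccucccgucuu
miR-483-5p: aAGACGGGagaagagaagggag
A full seed match to miR-483-3p reads AGGAGTG on the DNA strand of the transcript, and a match to miR-483-5p reads CCCGTCT. In the longest annotated 3′ untranslated region of each gene, 0 of the 9 genes held the miR-483-3p match and 1 of 9 held the miR-483-5p match. Among all tested genes with such a region (12091), 12.6% held the first and 3.26% the second. The searched regions ran from 506 bases in Cebpb and 591 in Atf5 to 5185 in Prox1 and 14356 in Onecut2, against a median of 1164 bases, and genes with a miR-483-3p match had a median of 2403 bases. A match or its absence is a description of these letters in this window.

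Mir483 itself had 0 counts in every Control library and 318 to 761 in the iTgMir483 libraries, which separated the groups as labelled. Poly(A) selection does not capture mature microRNAs, so these reads are of longer transcripts. Library totals were 12244123 to 30431286 counts. Values are given in CPM, counts scaled to the size of each library with TMM factors for its composition, and a gene passed when its p from edgeR's quasi-likelihood test, adjusted by the Benjamini-Hochberg method over all 13205 genes, was under 0.05. The 8 hepatocyte markers summed to 132522 to 182955 CPM in Control and 72018 to 144959 CPM in iTgMir483 livers. These were the largest of the marker sums in every library. Much of each sum was Alb, which averaged 111914 CPM in Control and 76071 CPM in iTgMir483 livers and did not pass (edgeR adjusted p = 0.160).

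None of the 9 factors passed the test between iTgMir483 and Control livers. In edgeR 0 of 9 passed and 2 of 9 (Prox1 and Foxa1) had an unadjusted p under 0.05. DESeq2 passed 1 (Prox1) and limma-voom 0. Over all tested genes 18.6% passed, 11.3% as higher and 7.33% as lower in iTgMir483, and 33.4% had an unadjusted p under 0.05. The fitted log2 fold change was below 0 for 8 of 9 factors with a median of -0.09, beside 49.2% and a median of 0.0058 over all genes. The values of the 2 groups overlapped for all 9 factors, where 7.92% of all genes had groups that did not overlap.

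**Figure D1:**
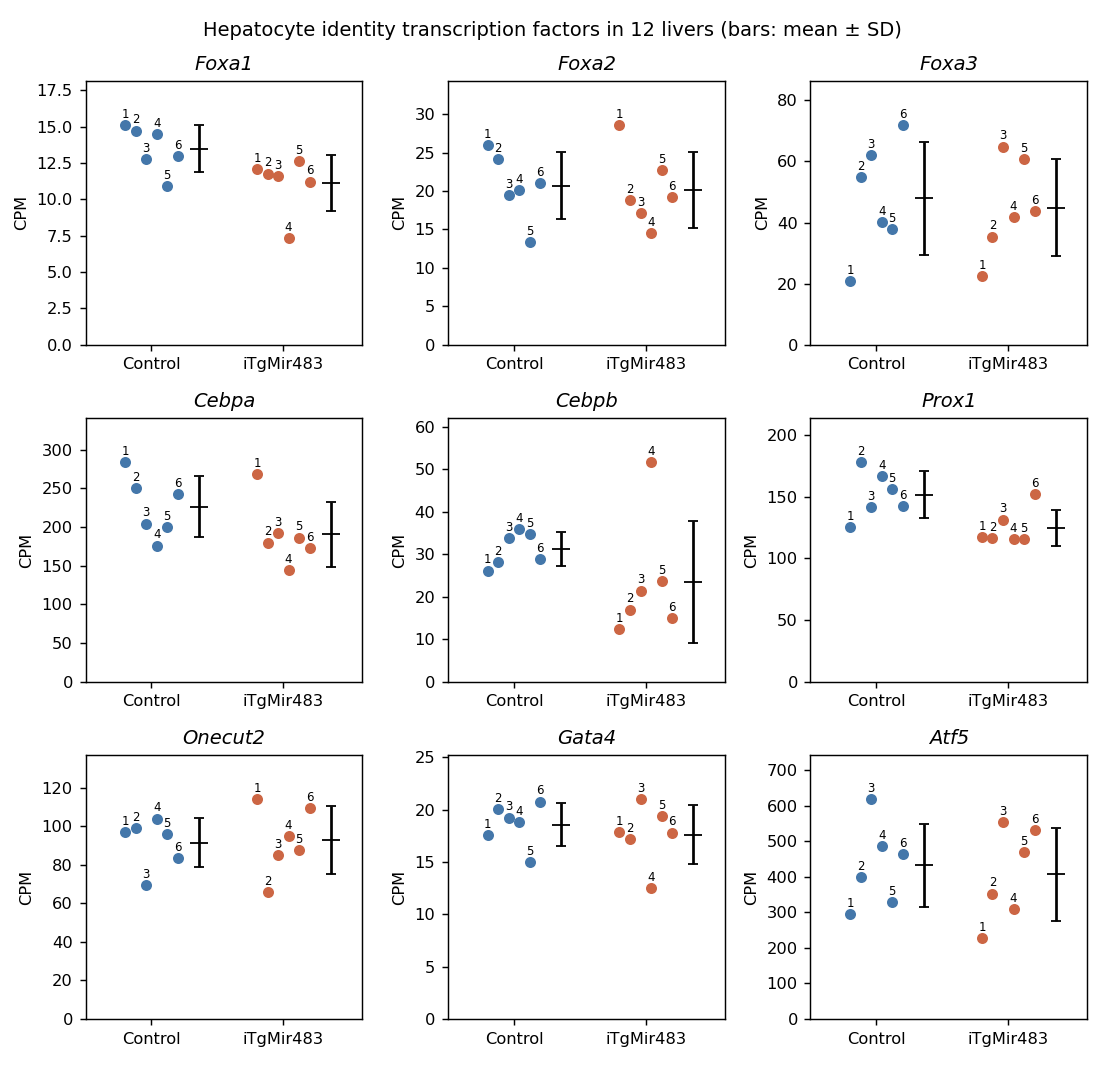
CPM of each factor (vertical axis from 0) in the 6 Control (blue) and 6 iTgMir483 (orange) livers, each point numbered by replicate, with the mean and SD in black. The groups overlap in every panel, and the Cebpb value of iTgMir483 replicate 4, 51.7 CPM, stands above the 11 other livers.

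The genes of the Foxa family, which encode forkhead pioneer factors, did not pass. Foxa1 (ENSMUSG00000035451, chromosome 12, 57540628 to 57546916, GRCm38) measured 15.1, 14.7, 12.8, 14.5, 10.9 and 13.0 CPM in Control replicates 1 to 6 and 12.1, 11.8, 11.6, 7.33, 12.7 and 11.2 CPM in iTgMir483 replicates 1 to 6. The groups overlapped, with iTgMir483 replicate 4 alone under all the controls, and the counts behind Foxa1 were the lowest of the 9 genes, from 100 per library. The log2 fold change was -0.28 ± 0.132 (SE, n = 6 per group; edgeR adjusted p = 0.149), with a 95% interval of -0.56 to -0.00015.

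Foxa2 (ENSMUSG00000037025, chromosome 2, 148042877 to 148046969), needed for liver specification together with Foxa1, ranged from 13.4 CPM through a median of 20.6 to 26.0 CPM in Control and from 14.5 through 19.0 to 28.6 CPM in iTgMir483. The groups lay over each other, with a log2 fold change of -0.04 ± 0.172 (edgeR adjusted p = 0.901). The 95% interval of the linear fold was 0.755 to 1.26. Foxa3 (ENSMUSG00000040891, chromosome 7, 19013284 to 19023538), a family member abundant in adult liver, ranged from 20.7 through 47.6 to 72.0 CPM in Control and from 22.3 through 42.8 to 64.8 CPM in iTgMir483 livers. Its spread was the widest of the Control values, with a coefficient of variation of 38.7% there and 35.4% in iTgMir483. The fitted log2 fold change was -0.09 ± 0.282 (edgeR adjusted p = 0.849), with a fold interval of 0.617 to 1.42.

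The shares of the Foxa transcripts in their family's total were close in the 2 groups. Per kb of exon, Foxa3 made up 62.9% of the family's summed CPM in Control and 63.6% in iTgMir483 livers, Foxa2 25.3% and 26.3%, and Foxa1 11.8% and 10.1%. Both replicate 1 libraries, Control and iTgMir483, departed from the rest, with Foxa3 at 20.7 and 22.3 CPM against at least 35.4 CPM in the other 10 livers, and a Foxa3 share of 39.6% and 41.1%.

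The C/EBP factors are leucine zipper proteins, and Cebpa maintains metabolic gene expression in the resting liver while Cebpb is induced in the acute-phase response and in regeneration. The region around each start site, 250 bases before it and 50 after, is shown because Cebpb was highest and Cebpa lowest of all 12 livers in the same liver, iTgMir483 replicate 4. Capitals mark TATAAA and the cAMP-response half-site TGACG (or CGTCA, the same letters on the other strand). The sequences are RefSeq promoters of GRCm38.p6 on the plus strand, Cebpa from chr7:35119043-35119342 and Cebpb from chr2:167688665-167688964.
Cebpa: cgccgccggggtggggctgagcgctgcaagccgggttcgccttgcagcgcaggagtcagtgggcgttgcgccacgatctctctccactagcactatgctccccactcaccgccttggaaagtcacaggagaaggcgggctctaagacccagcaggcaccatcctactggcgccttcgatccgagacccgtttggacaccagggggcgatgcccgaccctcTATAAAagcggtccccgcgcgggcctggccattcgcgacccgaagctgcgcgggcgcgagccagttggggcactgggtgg
Cebpb: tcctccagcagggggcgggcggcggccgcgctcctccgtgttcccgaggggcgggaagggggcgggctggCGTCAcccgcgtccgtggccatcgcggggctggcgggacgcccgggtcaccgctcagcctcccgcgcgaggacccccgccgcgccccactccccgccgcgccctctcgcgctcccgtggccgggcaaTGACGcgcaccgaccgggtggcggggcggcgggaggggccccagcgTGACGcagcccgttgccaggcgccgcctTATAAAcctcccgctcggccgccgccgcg
The Cebpb window held 3 TGACG half-sites, at -180, -53 and -7 from the start, with TATAAA at 21 after it, and was 80.7% G or C. The Cebpa window held no TGACG, had TATAAA at -30, and was 67.3% G or C. Of 32851 promoters of the same length, 20.8% held TGACG and 13.6% TATAAA on either strand. Neither window held the C/EBP letters TTGCNNAA, which 10.8% of promoters held. Promoter entries matched 7 of the 9 genes.

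Cebpa (ENSMUSG00000034957, chromosome 7, 35119293 to 35121928) measured 283.9, 250.2, 204.5, 176.1, 200.2 and 242.2 CPM in Control replicates 1 to 6 and 268.7, 179.9, 192.4, 143.9, 186.4 and 172.7 CPM in iTgMir483 replicates 1 to 6. Of the iTgMir483 livers, 2 lay below the lowest control and replicate 1 lay near the top of the Control values. The log2 fold change was -0.25 ± 0.151 (edgeR adjusted p = 0.276), with a fold interval of 0.674 to 1.05.

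Cebpb (ENSMUSG00000056501, chromosome 2, 167688915 to 167690418) measured 26.2, 28.2, 33.7, 35.9, 34.8 and 28.9 CPM in Control replicates 1 to 6 and 12.4, 17.0, 21.5, 51.7, 23.7 and 15.0 CPM in iTgMir483 replicates 1 to 6. In iTgMir483, 5 of 6 livers were below the lowest control, and replicate 4 was above the highest. The coefficient of variation was 12.9% in Control and 61.2% in iTgMir483 livers. Over all 12 livers the log2 fold change was -0.41 ± 0.275 (edgeR adjusted p = 0.318), with a fold interval of 0.501 to 1.13. Without iTgMir483 replicate 4 the remaining 5 livers averaged 17.9 ± 4.61 CPM (SD, n = 5), and the log2 fold change was -0.80 ± 0.156 with an edgeR adjusted p of 0.00448. The call on Cebpb thus rested on a single library.

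Replicate 4 also differed from the other iTgMir483 livers in the ratio of the C/EBP transcripts. Cebpb over Cebpa, in CPM, was 0.144 ± 0.0429 in Control (SD, n = 6) and 0.138 ± 0.112 in iTgMir483 livers. The Control ratios ran from 0.0922 to 0.204. The iTgMir483 ratios ran from 0.0463 in replicate 1 to 0.359 in replicate 4, and so reached beyond the controls at both ends. Among all 12 livers, replicate 4 had the lowest Foxa1, Cebpa, Prox1 and Gata4 values together with the highest Cebpb, while iTgMir483 replicate 1 had the lowest Cebpb and Atf5.

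Acute-phase genes, part of a response in which Cebpb takes part, were set beside these values. Of 18 such genes, 9, 0, 2, 16, 6 and 5 lay above all controls in iTgMir483 replicates 1 to 6. Below all controls lay 2, 8, 7, 1, 2 and 4 of them, and Crp was below all controls in all 6 iTgMir483 livers. Hp and C3 were above all controls in replicate 4 and within the Control range in replicate 1. Saa1, serum amyloid A, measured 3355.8, 16.5, 7.86, 5166.3, 41.4 and 33.7 CPM in iTgMir483 replicates 1 to 6, and 12.1 to 57.0 CPM in Control. Lcn2, an iron-binding lipocalin, measured 145.6, 10.4, 12.7, 694.3, 67.1 and 46.1 CPM, and 7.45 to 22.1 CPM in Control. Cebpb was thus lowest in one of the livers with the highest Saa1 and highest in the other. Macrophage markers summed to 1387 CPM in replicate 4, with 488.8 to 778.8 CPM in the other iTgMir483 livers and 323.7 to 468.3 CPM in Control. The part of the acute-phase state and of macrophage RNA in the Cebpb values was not tested.

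**Figure D2:**
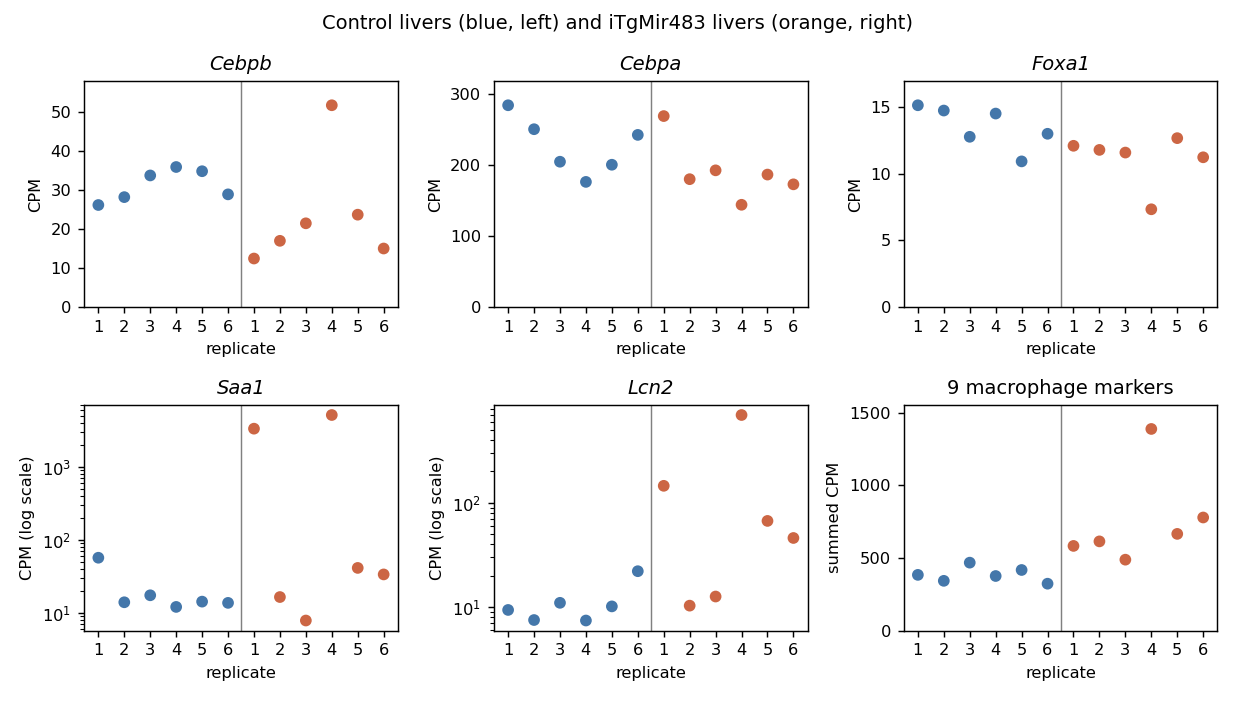
CPM of Cebpb, Cebpa and Foxa1 (top), of Saa1 and Lcn2 on log axes, and the summed CPM of 9 macrophage markers, by replicate number in Control (blue) and iTgMir483 (orange) livers. Saa1 stands at 3355.8 and 5166.3 CPM in iTgMir483 replicates 1 and 4, where Cebpb is 12.4 and 51.7 CPM.

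Prox1 (ENSMUSG00000010175, chromosome 1, 190118035 to 190170714), a homeodomain factor that marks hepatocytes and lymphatic endothelium, came closest to the threshold. It measured 125.6, 178.2, 141.5, 166.7, 156.4 and 142.4 CPM in Control replicates 1 to 6 and 117.5, 116.8, 131.5, 115.8, 116.0 and 152.0 CPM in iTgMir483 replicates 1 to 6. In iTgMir483, 4 of 6 livers were below the lowest control and replicates 3 and 6 were within the Control range. The log2 fold change was -0.28 ± 0.106 (edgeR adjusted p = 0.0786), with a fold interval of 0.703 to 0.963. It passed in DESeq2 (-0.29, adjusted p = 0.0356), without Control replicate 1 (-0.33, edgeR adjusted p = 0.0393) and without iTgMir483 replicate 6 (-0.35, edgeR adjusted p = 0.0386). Those livers held the lowest Control and the highest iTgMir483 value. Prox1 did not pass in limma-voom (-0.27, adjusted p = 0.0821), with the replicate block (-0.28, edgeR adjusted p = 0.114) or with any other single library left out. Lymphatic endothelium markers summed to 95.5 to 131.0 CPM in Control and 90.8 to 165.0 CPM in iTgMir483 livers. Reln, which is also a stellate cell marker, and Flt4 made up nearly all of that sum, while Pdpn, Ccl21a and Mmrn1 were near 0, so the sum says little of lymphatic endothelium. The part of these cells in Prox1 was not tested.

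Onecut2 (ENSMUSG00000045991, chromosome 18, 64340020 to 64400987), a cut-homeodomain factor of hepatocyte and bile duct development, ranged from 69.5 through a median of 96.5 to 104.0 CPM in Control and from 65.9 through 91.3 to 114.1 CPM in iTgMir483. The fitted log2 fold change of 0.02 ± 0.134 (edgeR adjusted p = 0.933) had a fold interval of 0.831 to 1.24. Onecut2 is also the gene with the miR-483-5p seed match, at 64393562 to 64393568 in a 3′ untranslated region of 14356 bases, the longest among the 9.

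Gata4 (ENSMUSG00000021944, chromosome 14, 63198922 to 63271692), a zinc finger factor of liver and of sinusoidal endothelium, ranged from 15.0 through a median of 19.0 to 20.8 CPM in Control and from 12.5 through 17.8 to 21.0 CPM in iTgMir483. Its log2 fold change was -0.07 ± 0.120 (edgeR adjusted p = 0.708), with a fold interval of 0.795 to 1.14. Sinusoidal endothelium markers summed to 349.6 to 415.9 CPM in Control and 313.3 to 405.9 CPM in iTgMir483 livers.

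Atf5 (ENSMUSG00000038539, chromosome 7, 44812256 to 44816658), a factor of the integrated and mitochondrial stress responses, ranged from 294.6 through a median of 431.5 to 618.6 CPM in Control and from 227.7 through 410.9 to 553.4 CPM in iTgMir483. The groups overlapped over most of their length, and the log2 fold change was -0.09 ± 0.226 (edgeR adjusted p = 0.826), with a fold interval of 0.674 to 1.32. Reads of Cebpa, Cebpb, Prox1 and Atf5 are uncertain where another gene runs over them on the opposite strand, since the strand setting of the counting is not stated. The Cebpb locus shares 908 bases with Tmem189, and Cebpa shares 313 with Gm45091. Prox1 shares 964 with Gm28172 and 419 with Prox1os, and Atf5 shares 571 with Nup62 and 272 with Il4i1. Over its whole length Tmem189 had 239 to 527 counts in Control and 244 to 516 in iTgMir483 libraries, beside 171 to 1050 for Cebpb over all 12.

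**Figure D3:**
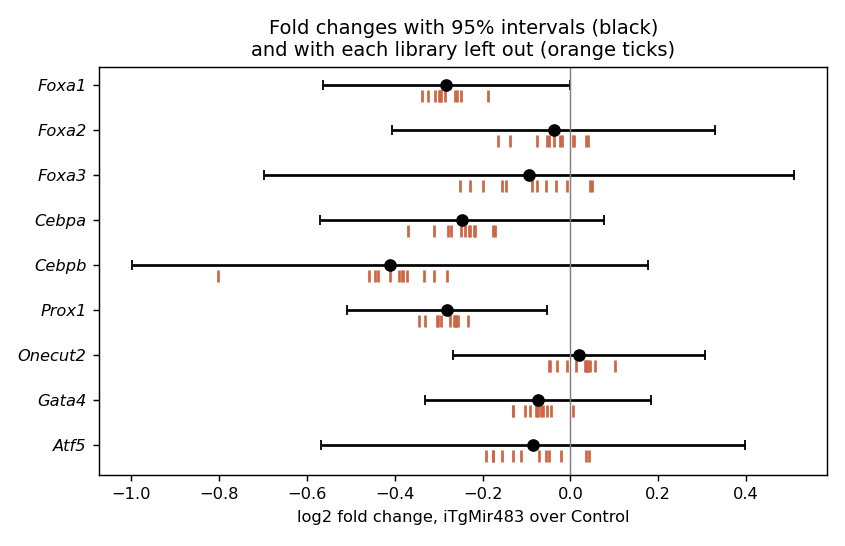
Log2 fold change of iTgMir483 over Control livers for the 9 factors, with 95% intervals (black) and the value with each of the 12 libraries left out in turn (orange ticks). The intervals of all but Foxa1 and Prox1 include 0, and the tick farthest from its point is Cebpb at -0.80, without iTgMir483 replicate 4.

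The order of the factors by level per length was the same in both groups. In Control livers the mean CPM per kb of exon was 216.8 for Atf5, 85.8 for Cebpa, 23.5 for Foxa3, 20.8 for Cebpb, 18.1 for Prox1, 8.73 for Foxa2, 5.63 for Onecut2, 4.76 for Gata4 and 4.06 for Foxa1. In iTgMir483 livers the same genes in the same order measured 204.3, 72.3, 22.0, 15.7, 14.9, 8.51, 5.72, 4.51 and 3.34 CPM per kb. In both groups the ranges did not overlap between Atf5 and Cebpa, Cebpa and Foxa3, or Prox1 and Foxa2. The ranges of Foxa3, Cebpb and Prox1 overlapped as neighbours, as did those of Foxa2, Onecut2, Gata4 and Foxa1. The order of neighbours inside each set thus lies within the spread between livers. Genes further apart in the second set could separate. The lowest Foxa2 value was 5.65 CPM per kb in Control and 6.12 in iTgMir483 livers. The highest values there were 5.32 and 5.38 for Gata4, and 4.54 and 3.80 for Foxa1.

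**Figure D4:**
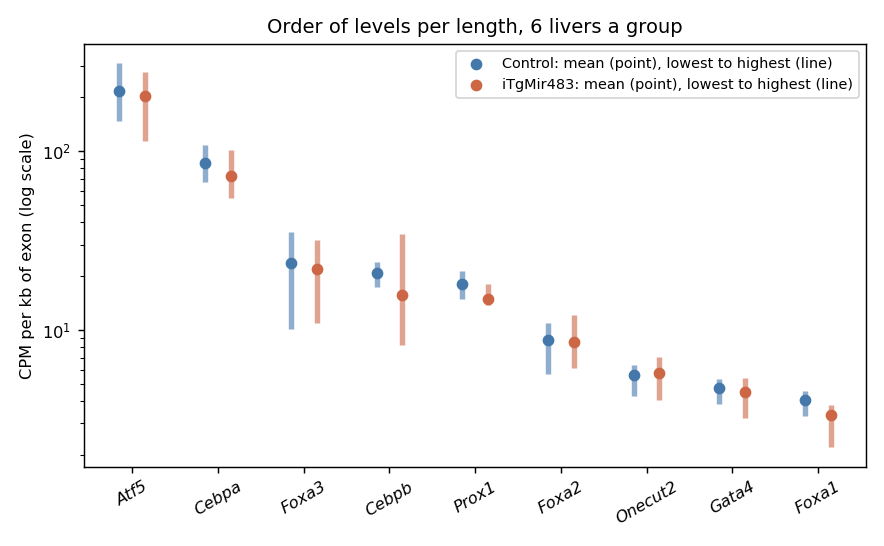
CPM per kb of exon on a log axis for the 9 factors in order of the Control mean, with points for group means and lines from the lowest to the highest of 6 livers. Atf5 and Cebpa stand apart at 216.8 and 85.8 in Control livers, and the order of the means is the same in iTgMir483 livers.

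Genes outside the 9 but close to them in the network were read from lists. Of 20 other liver transcription factors tested, 3 passed and all 3 were lower in iTgMir483: Nfib (log2 fold change -0.28, edgeR adjusted p = 0.0194) and Nfia (-0.56, adjusted p = 0.0224), nuclear factor I proteins, and Cebpg (-0.31, adjusted p = 0.0309), a C/EBP protein that pairs with the other members of its family. That is 15.0% of the list, near the 18.6% of all tested genes, and the list's median was -0.27. Without iTgMir483 replicate 4, 6 of the 20 passed, and without Control replicate 4, 1 passed. Of 17 tested relatives and cofactors of the 9 factors, 1 passed, again Cebpg (5.88% of the list), and the list's median was 0.12. That call was lost (0 of the list) when all genes with at least 1 count were kept, and without Control replicate 2, Control replicate 4, iTgMir483 replicate 2 or iTgMir483 replicate 3. It was also lost with the replicate block.

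Genes that these factors are known to drive form the next list. Of its 23 hepatocyte secretory and metabolic genes, 6 passed as lower and 1 as higher, with a median of -0.19. That is 30.4% of the list, beside 18.6% of all tested genes (7.33% as lower and 11.3% as higher). Tdo2, which starts tryptophan breakdown, fell by 1.14 on the log2 scale (edgeR adjusted p = 0.000846), and Cps1 and Ass1, enzymes of the urea cycle, fell by 1.21 (adjusted p = 0.00476) and 1.04 (adjusted p = 0.00274). Apoh, a plasma glycoprotein, fell by 0.45 (adjusted p = 0.00987), and Fgb, a fibrinogen chain of the acute phase, rose by 1.01 (adjusted p = 0.00878). Of the 8 hepatocyte markers, 3 (37.5%) passed as lower (Cps1, Ass1 and Hpd), with a median of -0.54.

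Of 18 acute-phase genes 4 passed as higher and 1 as lower, with a median of 0.61. That is 27.8% of the list, beside 18.6% of all tested genes. Saa1 and Saa2 rose by 6.07 and 7.04 on the log2 scale (edgeR adjusted p = 0.0143 and 0.00932), Orm2 by 5.16 (adjusted p = 0.0146) and Lcn2 by 3.87 (adjusted p = 0.00916), while Crp, C-reactive protein, fell by 0.61 (adjusted p = 0.00775). For Saa1, Saa2 and Orm2 these values come from iTgMir483 replicates 1 and 4, since the other 4 livers measured 7.86 to 41.4, 4.62 to 15.6 and 4.50 to 47.5 CPM. With limma-voom 2 acute-phase genes passed, both lower. Of 16 integrated and mitochondrial stress genes, 3 mitochondrial chaperones passed as lower, Hspd1 (-0.57, adjusted p = 0.00601), Hspa9 (-0.46, adjusted p = 0.0141) and Hspe1 (-0.48, adjusted p = 0.0165). Atf3, an early stress factor, passed as higher (1.59, adjusted p = 0.0102), and the list's median was -0.04. The 4 calls are 25% of the list, not far from the 18.6% of all tested genes.

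Markers of other liver cells were read from lists too, beside the 18.6% of all tested genes that passed. Bile duct and progenitor markers passed as higher in 8 of 12 tested genes, with a median of 1.07, and summed to 47.6 to 77.6 CPM in Control and 92.7 to 156.4 CPM in iTgMir483 livers. In that list Epcam was at 1.41 and Spp1 at 1.31 on the log2 scale. Macrophage markers passed as higher in 8 of 9, with a median of 1.03, and Csf1r was at 1.09. Stellate cell markers passed in 1 of 9 (Rgs5, higher), with a median of 0.27 and sums of 562.7 to 728.3 CPM in Control and 622.7 to 751.6 CPM in iTgMir483 livers. Sinusoidal endothelium markers passed in 1 of 9 (Pecam1, higher; median -0.07) and lymphocyte markers in 1 of 3 (Ptprc, higher; median -0.51), the latter summing to 11.9 to 17.7 and 14.6 to 33.2 CPM. Of the 4 tested lymphatic endothelium markers 0 passed in edgeR, DESeq2 or limma-voom, 1 had an unadjusted p under 0.05, and the median was 0.22. The part of these cells in the values of the 9 factors was not tested.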

How the data were processed

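The deposited values are raw counts per gene, which the authors made from stranded poly(A) libraries sequenced as paired-end reads in 1 pool, aligned to GRCm38 with STAR and counted over Ensembl genes. Every row named a gene and every count column a sample. Groups and replicate numbers came from the titles. Counts were fitted with edgeR 4.0.16 (glmQLFit and glmQLFTest, TMM scaling, filterByExpr, no covariates) on all 12 libraries, and the fit was tested on simulated data. SE is the absolute log2 fold change over the square root of F. DESeq2 1.42.0 and limma 3.58.1 served as alternatives, beside other filters, scaling and each library left out. Symbols and loci came from GENCODE on GRCm38; 55141 genes had a symbol, and 1 of 24 hepatocyte secretory and metabolic genes was unmatched. Each mouse gave 1 library, and no pair of libraries of the same group agreed within sampling noise. Pairs across the groups were not compared. Of the genes named from the lists, Alb, Hp, C3, Reln, Flt4, Ccl21a and Mmrn1 did not pass and Pdpn was not tested, while the rest passed. The 9 members and the 12 related lists were chosen with earlier results of these data known, and support nothing independently.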

Additional observations from a re-analysis of the deposited data

Results flagged for a closer look

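Each group of 6 values was examined for a lowest or highest liver whose gap to its nearest neighbour, as a share of the group's range, exceeded Dixon's 95% limit. Of 46 groups examined 11 did. The groups were the 9 factors, the Cebpb to Cebpa ratio, library totals, marker sums and the acute-phase genes that passed. Those genes were picked by the same data and the ratio repeats Cebpb, so the 2.3 flags that chance would give is not a fair measure. Among the 9 factors these were iTgMir483 replicate 4 for Foxa1 (share 0.731; 7.33 CPM against 11.2 to 12.7 CPM in the rest of its group) and for Cebpb (share 0.714; 51.7 against 12.4 to 23.7 CPM). The ratio of Cebpb to Cebpa in the same liver had a share of 0.742.

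The same liver stood apart in Orm2 (share 0.687, 2020 CPM), Lcn2 (share 0.802, 694.3 CPM) and the summed macrophage markers (share 0.677, 1387 CPM). In Control, replicate 1 stood apart in Saa1 (share 0.881, 57.0 CPM) and Orm2 (share 0.801, 30.7 CPM), replicate 3 in Saa2 (share 0.655), replicate 6 in Lcn2 (share 0.757), and replicate 4 in its library total (share 0.693).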

How the results depend on the processing

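The count of the 9 factors that passed was 0, became 1 in DESeq2 (Prox1), and ran from 0 to 1 with each library left out (Prox1 without Control replicate 1 or iTgMir483 replicate 6, Cebpb without iTgMir483 replicate 4). The fold changes of Foxa1, Cebpa, Cebpb and Prox1 stayed below 0 under every alternative. With single libraries left out, 5 factors changed sign: Foxa2 (-0.165 to 0.0413), Foxa3 (-0.250 to 0.0496), Onecut2 (-0.0480 to 0.102), Gata4 (-0.130 to 0.00706) and Atf5 (-0.192 to 0.0435). Leaving out both libraries numbered 1, chosen after seeing the data, gave -0.0309 for Onecut2. Over all genes, 1470 of the 2457 passed when a fold above 1.5 was also required, and 1742 to 2663 passed with single libraries left out. DESeq2 passed 3040 and the replicate block 2519.

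Same-numbered livers deviated together with correlations of 0.0339 to 0.440, highest for the replicate 1 livers. These values cannot decide whether the numbers pair livers or mark a shared factor, and the main fit used no pairing. With the replicate block 0 of the 9 factors passed (Cebpb -0.56, adjusted p = 0.0536), and the lists gave 1 acute-phase gene, 0 relatives and 2 stellate markers. Requiring the fold of 1.5 left 0 other transcription factors, 0 relatives, 1 stress gene, 0 sinusoidal and 0 stellate markers. Keeping all genes with at least 1 count gave 1 other transcription factor and 0 relatives. At least 10 counts in every library gave 4 bile duct and 2 stellate markers, robust dispersion and DESeq2 2 stellate markers each, dropping both libraries numbered 1 gave 3, and limma-voom 2 acute-phase genes. With single libraries left out, other transcription factors gave 1 to 6, relatives 0 to 2, sinusoidal markers 0 to 2, lymphatic markers 0 to 1 and stellate markers 1 to 2. The cause was not tested. Depth limits Foxa1 most, from 100 counts.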
